A study of Mus musculus with 4 samples.

Results

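The probe sets described are those of the cytosolic ribosomal protein genes, chosen by gene symbol alone (Rpl, Rps or Rplp and a number, with the kinases named Rps6k left out). Of 45101 probe sets in the deposited table, 213 qualified, of which 103 name 1 gene in the platform annotation and 110 name several. The 103 sets cover 48 genes, and a further 29 ribosomal protein genes appear only in sets that name several genes, which makes 77 of the 19324 genes that the annotation names.

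The RNA came from molar teeth of 60 Swiss-Webster pups, males and females, between 1 and 10 days after birth. The teeth were pooled and ground, and the RNA was hybridised to 4 Affymetrix Mouse Genome 430 2.0 arrays, which form the only group. Because 1 pool was measured 4 times, every SD below is technical, and no treatment, genotype or age can be compared. The labelled tissue carried the signals of its defining genes, with Amelx of ameloblasts at 198666 ± 42644 signal units, Dspp of odontoblasts at 111371 ± 20102 and Krt5 of epithelium at 117973 ± 13649 (SD, n = 4 arrays). Of 4 measured red cell genes 3 were above background, a call that 51.6% of all genes pass, among them Alas2 at 4418 ± 628. All 4 muscle genes were, with Acta1 at 20889 ± 1385. What each cell type adds to the ribosomal protein signals was not tested. In such a pool fewer cells of a type and less RNA per cell cannot be told apart.

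A cytosolic ribosome joins a small subunit, which reads the mRNA, to a large subunit, which forms the peptide bond, and each of its proteins is usually encoded by a single active gene with many processed pseudogenes. Their mRNAs are short and abundant in growing cells, and most begin with a pyrimidine tract that lets the kinase mTORC1 adjust their translation. Ameloblasts and odontoblasts are known as heavily secreting cells with a large rough endoplasmic reticulum, where ribosomes dock.

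Sequence features shared by these genes are shown by their promoters, since the genes were chosen by name and not by sequence. RefSeq promoters (GRCm38.p6, 250 bases before to 50 after the listed start) were found for 62 of the 77 genes, as 74 promoters. The letters CGGAAG, the core recognised by ETS family factors, were present on either strand in 45 of the 74 (60.8%), compared with 16.9% of 32851 promoters of all genes. An unbroken run of at least 8 pyrimidines on the coding strand, within 25 bases of the listed start, was present in 34 (45.9%), against 19.7% of all promoters. AAGATGG was found on either strand in 12 (16.2%) against 6.34%, and CACGTG in 8 (10.8%) against 7.15%. TATAAA was present in 8 (10.8%) against 13.6%. These shares are descriptions, and a match is not evidence of binding.

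Windows of 100 bases, 60 before and 40 after the listed start, are shown 5′ to 3′ for the paralogues Rps27l and Rpl39l next to their parent genes, for the paralogues Rpl22l1 and Rpl3l, and for Rpl38 and Rpl35, whose signals were high. Capitals mark CGGAAG on either strand and the pyrimidine runs.
Rps27l: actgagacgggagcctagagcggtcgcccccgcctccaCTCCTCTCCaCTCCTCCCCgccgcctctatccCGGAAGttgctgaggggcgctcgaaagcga
Rps27: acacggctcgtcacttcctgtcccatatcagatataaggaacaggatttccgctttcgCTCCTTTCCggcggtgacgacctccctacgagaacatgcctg
Rpl39l: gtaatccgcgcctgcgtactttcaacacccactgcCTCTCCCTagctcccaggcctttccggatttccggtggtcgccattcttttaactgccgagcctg
Rpl39: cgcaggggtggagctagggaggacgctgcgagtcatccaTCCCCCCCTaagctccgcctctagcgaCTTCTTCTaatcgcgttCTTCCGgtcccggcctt
Rpl22l1: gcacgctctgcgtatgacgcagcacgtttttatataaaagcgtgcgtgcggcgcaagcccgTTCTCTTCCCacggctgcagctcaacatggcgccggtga
Rpl3l: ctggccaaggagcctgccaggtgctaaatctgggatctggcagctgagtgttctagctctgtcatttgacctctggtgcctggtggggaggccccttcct
Rpl38: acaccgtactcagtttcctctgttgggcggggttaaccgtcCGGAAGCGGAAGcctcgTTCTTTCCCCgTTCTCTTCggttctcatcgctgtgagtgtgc
Rpl35: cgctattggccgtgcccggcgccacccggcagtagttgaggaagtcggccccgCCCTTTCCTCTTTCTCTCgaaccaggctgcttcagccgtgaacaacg

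The windows lie at chr9:66946026-66946125 for Rps27l (plus strand), chr3:90213609-90213708 for Rps27 (minus), chr16:10170168-10170267 for Rpl39l (plus), chrX:37085183-37085282 for Rpl39 (minus), chr3:28805448-28805547 for Rpl22l1 (plus), chr17:24727766-24727865 for Rpl3l (plus), chr11:114668520-114668619 for Rpl38 (plus) and chr2:39005092-39005191 for Rpl35 (minus). The longest run in these windows had 18 bases and belongs to Rpl35. Each promoter shown is the first listed for its gene, and Rps27l and Rpl3l have 2 listed. Of those shown, that of Rpl3l had neither CGGAAG in its 300 bases nor a pyrimidine run near the start. That of Rpl22l1 had a run without CGGAAG. Rps27, Rpl39l and Rpl35 held CGGAAG outside the window shown.

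Ribosomal protein genes lay at the bright end of the arrays. The measure is the MAS5 signal, in arbitrary units on a linear scale, and a probe set was called above background when it exceeded, on each of the 4 arrays, the 95th percentile of 86 probe sets for olfactory, vomeronasal and taste receptors. This threshold was 1163 ± 142 signal units (SD, n = 4 arrays). Of the 48 genes with a set of their own, 45 were above background (93.8%), where 51.6% of all 18193 genes were. The limma test also called 45 (50.8% of all genes), and the 99th percentile left 43 (48.2% of all genes). From plain sets alone, 15 of 25 genes were above background, where 46.6% of all 16591 genes with such a set were. The median log2 signal of the genes' brightest sets was 16.76, against 10.69 for all genes. From plain sets alone the ribosomal protein genes had a median of 11.46. Over plain sets naming 1 gene the median was 10.88 for members, against 9.74 for all such sets. Among the 50 genes with the highest signal 25 are ribosomal protein genes by the symbol rule, and among the 100 highest 32 are. These counts leave out Rpsa and Fau, ribosomal protein genes outside the rule that are described below. The 213 sets are 0.473% of the 45037 probe sets that are not controls and carried 9.21 ± 0.367% of their summed signal (SD, n = 4 arrays). A share of signal is not a share of mRNA, because brightness also depends on the probes.

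**Figure D1:**
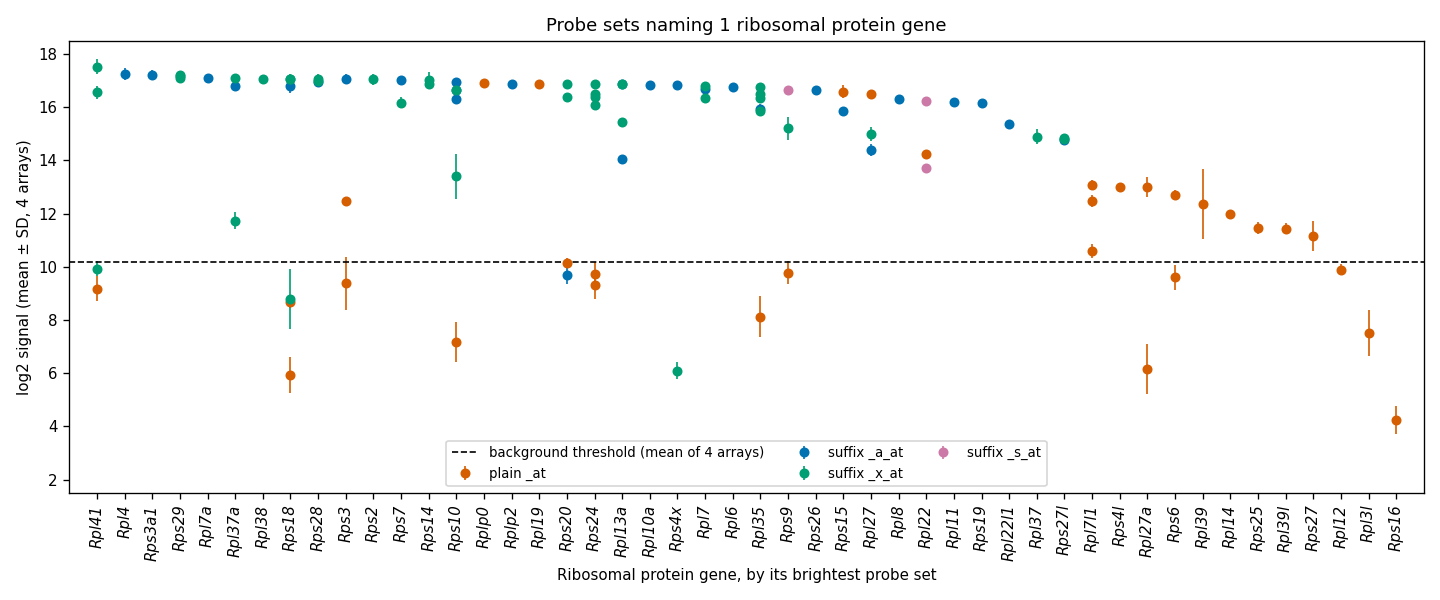
Mean log2 signal (vertical axis, ± SD over 4 arrays) of the 103 probe sets naming 1 ribosomal protein gene, by gene (horizontal axis, ordered by the brightest set) and coloured by suffix. The dashed line is the mean background threshold; 45 of 48 genes have a set above background, and several genes with a set above 16 also have a plain set below the line.

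The 10 genes with the highest signal included Rpl41, which encodes the smallest ribosomal protein. It had signals of 145836, 196857, 186431 and 234182 on arrays 1 to 4, and array 1 was the lowest. Rpl4, whose protein lines the tunnel through which the new peptide leaves, had 129543, 165781, 143549 and 183960. Rps3a1 and Rps29 of the small subunit averaged 152558 ± 18006 and 152056 ± 16444. These are followed by Rpl7a at 139329 ± 16174, Rpl37a at 138758 ± 10928, Rps18 at 137821 ± 17411, Rps28 at 137759 ± 17924, Rpl38 at 137589 ± 10961 and Rps3 at 137128 ± 16131 (SD, n = 4 arrays each). The last 6 of the 10 lie within their SDs of each other, and the order is one of probe sets and not of mRNA amounts. The limma one-sided test against the threshold gave each of the 10 an adjusted p of 1.72e-15, as it did for Rpl6 and Rps26. Because the 10 were chosen for their brightness, this outcome was fixed in advance and adds no support.

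Small subunit genes had a slightly higher median than large subunit genes on every array. Above background were 21 of 22 small subunit genes and 24 of 26 large subunit genes, against 51.6% of all genes. Their median log2 signals were 16.84 and 16.62. On arrays 1 to 4 the medians were 16.63, 16.90, 16.82 and 16.84 for the small subunit and 16.52, 16.61, 16.55 and 16.79 for the large, a difference of 0.12, 0.29, 0.27 and 0.06. These are medians over different probes, for genes with a set of their own and with paralogues included. Arrays 1 to 4 read the same pool with the same probes, and the difference was not tested.

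Genes of the stalk, the flexible arm of the large subunit that recruits translation factors, were bright in all but 1 set of their own. Rplp0 had 115068, 123826, 125354 and 131625 on arrays 1 to 4, and Rplp2 107852, 116797, 115034 and 139693. Rpl12, at the base of the stalk, had 1012, 987, 1065 and 774 in its own set, which exceeded the threshold on 1 array and was not above background. A set that names Rpl12 with 3 other genes had 94752, 81204, 106382 and 73413. Rplp1 was measured only in a set shared with Gm13777, at 150649 ± 13382.

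Rpl5 and Rpl11 bind the 5S ribosomal RNA and, outside the ribosome, the p53 regulator Mdm2. Rpl11 had 77315, 81364, 72283 and 68235 in its own set. A second set, shared with Gm5093, stayed below the threshold on every array at 734 ± 149. Rpl5 was measured in 3 sets shared with the pseudogene Rpl5-ps2, all above background, the brightest at 144868 ± 12731 and the dimmest at 3858 ± 633 (SD, n = 4 arrays). The sets of both genes thus differ far beyond the spread between arrays.

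For the peptide exit tunnel, all 4 listed genes with a set of their own were above background (51.6% of all genes). Rpl4 is given above, Rpl19 averaged 119554 ± 10137 and Rpl35 111258 ± 10550. Rpl39, whose small protein lies in the tunnel wall, had 7362, 7510, 9922 and 1345. Its value on array 4 was far below the others, and at the 99th percentile of the background sets the gene was not above background. The other Rpl39 set, shared with Gm32211, had 106765, 141163, 125985 and 159820, with array 4 the highest. The tunnel genes Rpl17, Rpl23a, Rpl26 and Rpl31 were measured only in shared sets, the brightest of which averaged 117366 ± 11520, 108074 ± 11000, 138531 ± 14911 and 148492 ± 12179.

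Of the listed small subunit proteins along the mRNA channel and at the decoding site, 4 of 5 measured genes were above background (51.6% of all genes). Rps18 and Rps3 are given above, Rps2 averaged 135692 ± 17804 and Rps15 99210 ± 17682. Rps16 had 15.1, 31.8, 14.6 and 18.7 in its own plain set, the lowest of all 48 genes and far under the threshold. A set shared with Rps16-ps2 and LOC100862433 had 116807, 152214, 137190 and 160692. Rps23, at the decoding centre, was measured in a set shared with Gm8618, at 139098 ± 15828.

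Rps6, the small subunit protein phosphorylated by the S6 kinases, had 7622, 5818, 7197 and 6035 in its brightest own set. Of 9 sets shared with the pseudogene Rps6-ps4, 8 were above background, the brightest with 121226, 170760, 147807 and 202395 and the one below it at 559 ± 227. Of the S6 kinase family itself, 3 of 6 measured genes were above background, a share near the 51.6% of all genes, with Rps6ka3 at 7909 ± 751 and Rps6kb2 at 3054 ± 410, whereas Rps6kl1 had 175 ± 62.4 and passed on 0 arrays.

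Several members are known from disease or mouse mutants. All 11 measured genes of the list for human Diamond-Blackfan anaemia were above background (51.6% of all genes), with a median log2 signal of 16.76. Rps29 and Rps28 are given above, Rps19 averaged 73287 ± 2350, and Rps27 was the dimmest. In mice, all 7 measured genes of the mutant list were above background, against the same 51.6%. Rpl38, mutated in tail-short mice, had 124260, 145365, 133054 and 147676, and Rps20, mutated in a dark-skin line, averaged 119300 ± 7984. Rpl24, the gene of belly spot and tail mice, was measured in 2 sets shared with Gm9385, of which the brighter had 104835 ± 3543.

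Of the listed ribosomal proteins outside the symbol rule, the measured 2 were above background (51.6% of all genes). Rpsa averaged 133036 ± 21882, and Fau, which joins a ubiquitin-like domain to a small subunit protein, averaged 103621 ± 16415 (SD, n = 4 arrays).

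Paralogues, extra copies of a ribosomal protein gene, were mostly above background, with 5 of 6 measured (51.6% of all genes). Rpl22l1, the copy of Rpl22, had 45334, 37247, 43390 and 44667, against 69015, 84479, 69445 and 81868 in the brightest Rpl22 set. The other Rpl22 sets, also above background, averaged 19449 ± 1887 and 13364.5 ± 252, below Rpl22l1. The order of these genes thus depends on which Rpl22 set is read. Rps27l, a p53 target, had 29363, 29439, 30998 and 26781 in the brightest of its 3 sets, and the dimmest of them averaged 28088 ± 915. Its parent Rps27 had 2801, 1420, 3357 and 2022 in its own plain set and was not above background at the 99th percentile. The set that names Rps27 with Rps27rt had 129373, 137843, 132261 and 150911. So the order of Rps27l and Rps27 also depends on which Rps27 set is read.

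Rpl7l1 averaged 8737 ± 1102, against 114442 ± 7944 for Rpl7, and its 3 sets were all above background. Rps4l, annotated as a transcribed pseudogene in the reference table, had 7408, 8049, 8271 and 9359. The brighter Rps4x set had 103227, 116121, 113178 and 134124, and the other was not above background. Rpl39l, known for its expression in testis, had 3032, 3205, 2473 and 2411, all above the threshold. Rpl3l, the copy of Rpl3 used in striated muscle, had 433, 152, 153 and 111 and passed on 0 arrays. The skeletal muscle genes in the same pool were above background, as given above. Rpl3l was read by a single plain set. The own plain sets of Rps16 and Rpl12 also failed the call, although their shared sets were bright. The low signal of Rpl3l therefore does not show that its mRNA was absent. Rpl3 itself, in the set shared with Gm12816, had 114690, 146437, 126878 and 139550. Rpl36al could not be separated from Rpl36a, with which it shares both of its sets, nor Rpl32l from Rpl32. Signals of a paralogue and its parent come from different probes, so no fold is given.

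**Figure D2:**
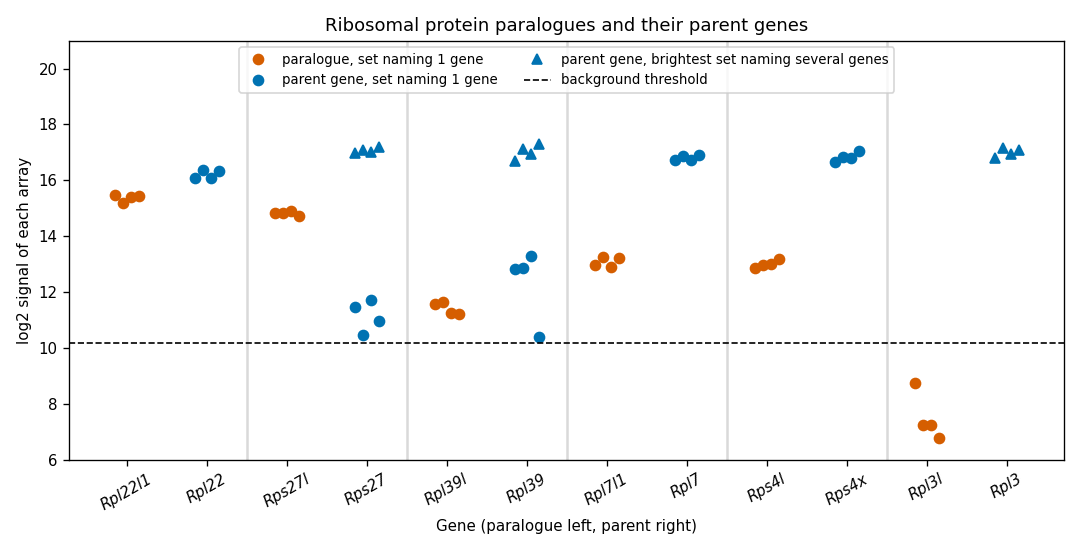
log2 signal of each array (vertical axis; 4 points per set) for 6 paralogues (orange) and their parent genes (blue). Circles are the gene's brightest set naming 1 gene, and triangles the parent's brightest set naming several genes. Of the paralogues only Rpl3l lies below the dashed background threshold, and the own sets of Rps27 and Rpl39 lie far below their shared sets.

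The members also differed by the suffix of the probe set. A plain _at set is designed to be unique to a transcript, _a_at marks transcripts of the same gene, and _s_at and _x_at mark sequence shared with other transcripts. Among sets naming 1 gene, 17 of 32 plain sets were above background (53.1%), where 37.6% of all plain sets were. The counts were 27 of 28 for _a_at (96.4%, against 61.2% of all such sets), 37 of 40 for _x_at (92.5%, against 51.2%) and 3 of 3 for _s_at (against 62.8%). Median signals were 108098, 94044 and 75877 for _a_at, _x_at and _s_at, and 1879 for plain sets. Over all 103 sets 84 were above background (81.6%), where 42.5% of all sets naming 1 gene were, and the limma test called 83, where it called 41.8% of all.

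Sets naming several genes gave the same picture. Of 110, 92 were above background (83.6%), compared with 46.9% of all sets naming several genes, and limma also called 92, where it called 46.7% of all such sets. The counts were 12 of 25 for plain sets (48.0%, against 35.5%), 32 of 34 for _a_at (94.1%, against 74.7%), 40 of 43 for _x_at (93.0%, against 60.3%) and 8 of 8 for _s_at (against 43.4%). Most partner symbols are those of pseudogenes and predicted genes, and how far these signals come from the parent gene was not tested. The 5 brightest were a set of Rpl9 at 178947 ± 20661, 2 sets of Rpl23 at 178861 ± 27211 and 151670 ± 13288, a set of Rps2 at 161621 ± 19267 and the set of Rps6 above. All 29 genes measured only in such sets had at least 1 above background. The share of all genes under such a call was not computed.

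**Figure D3:**
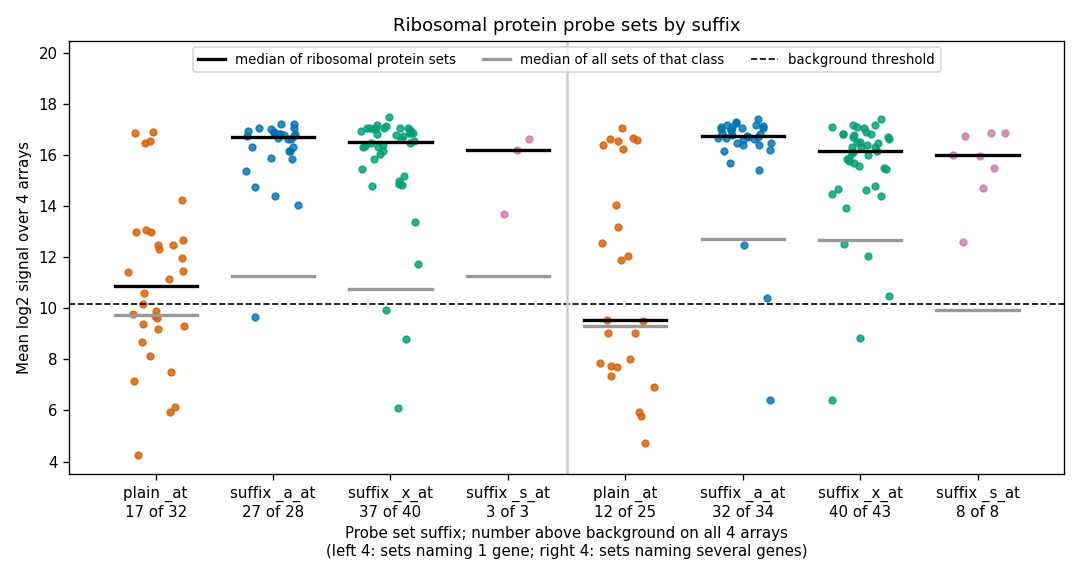
Mean log2 signal over 4 arrays (vertical axis) of each ribosomal protein probe set by suffix (horizontal axis), with sets naming 1 gene in the left 4 columns and sets naming several genes in the right 4. Black bars are medians of ribosomal protein sets, grey bars medians of all sets of that class; plain sets spread over the whole range, while 27 of 28 and 37 of 40 sets with _a_at and _x_at are above background.

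Probe sets of the same gene often differed, although all were hybridised with the same pool, and the cause was not tested. Of 23 genes with more than 1 set of their own, 11 had some sets above background and others not. Where the dimmest set was not above background, only a lower bound of the span is given, with values under the threshold set to it on that array. In 7 genes the brightest set was at least 100-fold above the dimmest by this bound. Rpl41 spanned at least 163-fold and Rps18 at least 118-fold, with 137821 ± 17411 in an _x_at set, against 67.1 ± 37.4 in a plain set that passed on 0 arrays. Rps4x spanned at least 100.4-fold, with 116662 ± 12882 in its _a_at set, against 69.6 ± 14.1 in an _x_at set that passed on 0. The bounds were 108 for Rps10 and 95.9 for Rpl35. The dimmest set of Rps10 had 101, 250, 198 and 85.5, and its brightest 117568, 129115, 126809 and 128341, so no array brought the sets near each other. Among genes with every set above background, Rpl37a had a ratio of 40.7, Rps29 with 3 sets 1.09 and Rps28 with 3 sets 1.07.

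In 11 genes that had both kinds of set, the brightest suffixed set exceeded the brightest plain one in 9. Rpl27 and Rps15 were the exceptions, and in 7 of the 11 only a suffixed set was above background. With values under the threshold set to it, the median difference was 6.58 on the log2 scale, itself a bound. Over all 4011 genes with both kinds, 50.4% had the brighter suffixed set, and the median difference, computed the same way over the 2975 with a set above background, was 0.11. Among 215 other genes with a set at least as bright as the lower quartile of ribosomal protein sets above background (30044 signal units), 66.0% had the brighter suffixed set, with a median difference of 0.69.

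The sets not above background numbered 19 among those naming 1 gene and 18 among those naming several. By number of arrays passed, closest to the call were sets of Rps20 and Rpl37, each above on 3 arrays. The Rps20 set, a plain one, had 1007, 1213, 1333 and 1044. The Rpl37 set, shared with Rpl37rt, had 1551, 1903, 1326 and 1144. A set of Rpl23 at 1432 ± 476 passed on 2 arrays. Just inside the call stood the dimmest Rpl7l1 set, at 1568 ± 268, which limma did not call (adjusted p = 0.0521), and the Rps27 set. The rest of the 18 shared sets passed on 0 arrays. Their signals ran from 30.3 ± 20.3 for Rps13 to 752 ± 162 for Rpl21, and they belonged also to Rpl11, Rpl24, Rps6, Rpl9, Rps19, Rpl30 (2 sets), Rps12, Rpl3, Rpl23a, Rpl21 (a second set), Rpl13a with Flt3l, Rps15a and Rpl31. Each of these genes had another set above background.

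The mitochondrial ribosome has its own set of nuclear-encoded proteins. All 76 mitochondrial ribosomal protein genes were above background (51.6% of all genes). Their median log2 signal was 12.56, compared with 16.76 for the 48 cytosolic genes. Mrpl27 averaged 15833 ± 1865, Mrps33 14021 ± 707 and the dimmest, Mrpl1, 1980 ± 352. All 46 measured translation factor genes were above background (51.6% of all genes), with a median of 14.09. Eef1a1, which brings aminoacyl-tRNA to the ribosome, averaged 186084 ± 25226 and Eef2, which moves the ribosome along, 123030 ± 9678. The dimmest, the release factor gene Gspt2, averaged 1626 ± 447 and was called neither at the 99th percentile nor by limma over genes, where 45 of the 46 were.

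Other genes with a 5′ pyrimidine tract were all above background, 17 of 17 (51.6% of all genes), with a median log2 signal of 15.39. Tpt1 averaged 180175 ± 28717 and Hnrnpa1, the dimmest, 14620 ± 760. Of 34 ribosome assembly genes 33 were above background (51.6% of all genes), with a median of 11.86. Npm1 and Ncl, abundant nucleolar proteins, averaged 37881 ± 4957 and 37878 ± 3354, and Rrp9, the exception, averaged 1395 ± 648 and passed on 3 arrays. Of 15 genes of RNA polymerase I, which transcribes the ribosomal RNA genes, and its factors 12 were above background (51.6% of all genes), with a median of 10.85. Polr1d averaged 16571 ± 3171, Ubtf 10503 ± 665 and Cd3eap, which passed on 2 arrays, 1012 ± 200. The limma test called 9 of these 15, where it called 50.8% of all genes. Signals of different genes are not amounts, and the medians are descriptions of probe sets.

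**Figure D4:**
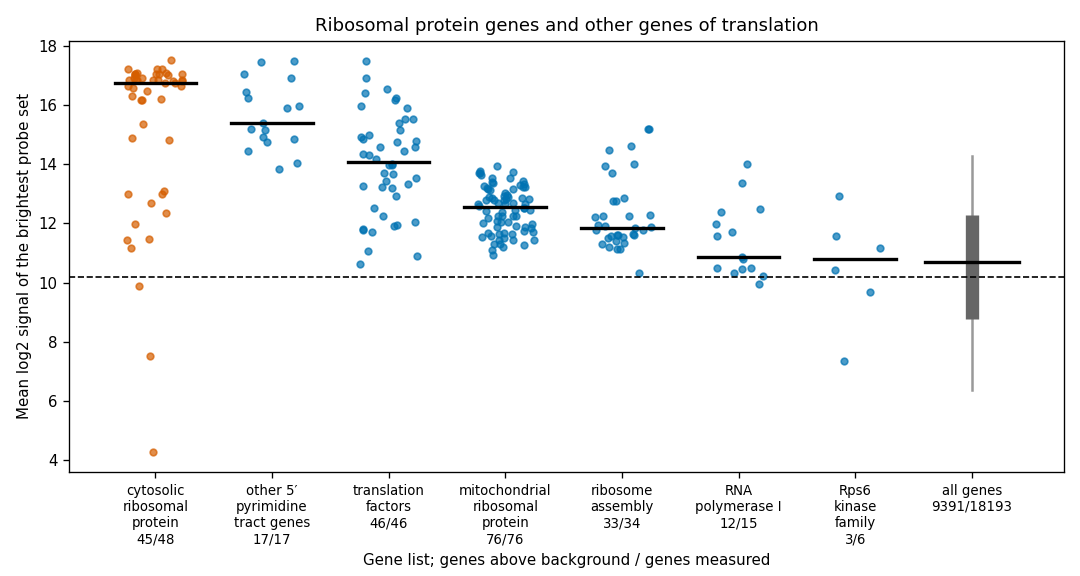
Mean log2 signal of each gene's brightest probe set (vertical axis) by gene list (horizontal axis, with genes above background and measured under each name); black bars are medians and the dashed line is the mean background threshold. For all genes the thick bar spans the quartiles and the thin line the 5th to 95th percentile; the cytosolic list has a median of 16.76, the mitochondrial one 12.56 and all genes 10.69.

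Whether members varied more or less than other sets between arrays depended on the comparison. Among the 176 members above background the median SD of log2 signal was 0.15, compared with 0.17 over all sets above background. For the 139 members above 30044 signal units it was 0.137, against 0.124 for 711 other sets in that range, and after quantile normalisation it was 0.0906 against 0.102. None of these differences was tested. Among the 37 members not above background the median SD was 0.55. The genes above background were ranked by the SD of their brightest own set. Rps19 had the smallest, 0.05, with 75033, 69820, 74225 and 74070, followed by Rps9 and Rps10 at 0.06 each. Another set of each of the latter, both _x_at and above background, had an SD of 0.42 for Rps9 and 0.84 for Rps10. The largest SDs in this ranking were 1.32 for Rpl39, 0.55 for Rps27, 0.37 for Rpl27a, 0.29 for Rpl37 and 0.29 for Rps14. Shared sets above background, which the ranking leaves out, included SDs of 0.68 for Rps13 and 0.02 for Rpl30. Rps14 had 100169, 147091, 129042 and 159344. Rpl37 had 37939, 31294, 30940 and 23140, so array 4 was the highest for Rps14 and the lowest for Rpl37.

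Members above background moved with the arrays. Of these 176, 86 were lowest and 27 highest on array 1, and 44 were lowest and 85 highest on array 4. The 711 other sets described above are limited to signals above 30044 units, which the 176 are not. Of these 711, 283 were lowest and 114 highest on array 1, and 122 were lowest and 394 highest on array 4. After quantile normalisation the members' counts turned round, with 33 lowest and 75 highest on array 1 and 75 lowest and 41 highest on array 4. For the 139 members above 30044 signal units, the median log2 deviation from the 4-array mean was -0.09, 0.04, -0.02 and 0.10 on arrays 1 to 4. For 711 other sets in that range it was -0.05, 0.02, -0.05 and 0.09, so other bright sets shifted in the same directions. After quantile normalisation, which gives the arrays one distribution, the members' medians were 0.05, -0.01, 0.02 and -0.02 and those of the other sets -0.02, 0.01, -0.01 and 0.02. The summed share of signal was 8.72, 9.35, 9.18 and 9.59%. The 4 arrays carry 1 RNA pool, and what moved them was not tested.

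**Figure D5:**
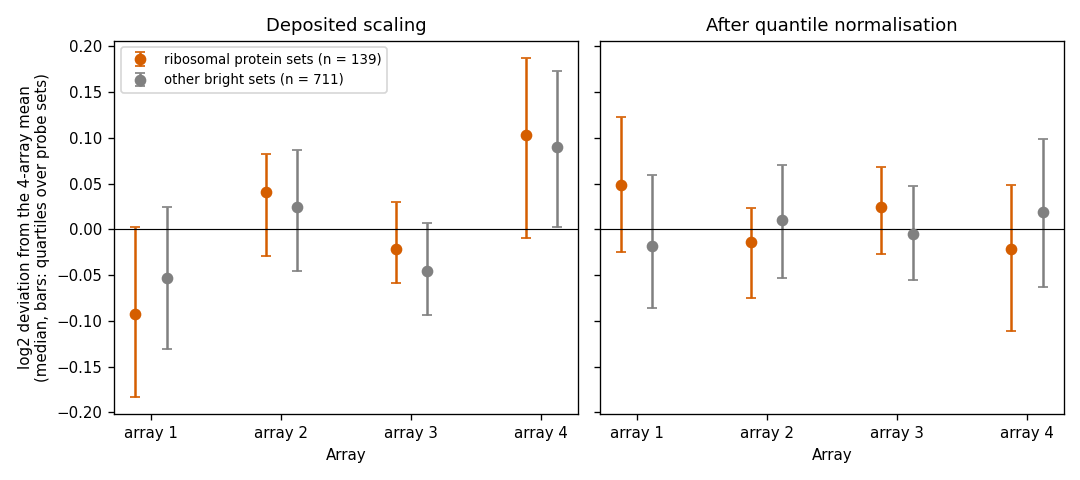
Median log2 deviation from the 4-array mean (vertical axis, bars from the lower to the upper quartile over probe sets) on each array (horizontal axis) for 139 ribosomal protein sets and 711 other sets above 30044 signal units, as deposited (left) and after quantile normalisation (right). As deposited, both kinds of set were low on array 1 and high on array 4, and after normalisation every median lies within 0.05 of 0.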

How the data were processed

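What the authors deposited is a table of 4 columns, 1 for each array, with an intensity for every one of 45101 probe sets. MAS5 computed these intensities, per the submitters' processing notes, in a version and with settings not given there. After trimming 2% at both ends each column averaged 2500, a sign of scaling to 1 target. MAS5 works from perfect-match and mismatch probes, and its low values scatter most. The number of arrays limits the precision.

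Genes were named from the platform annotation (34945 probe sets with 1 symbol, 932 with several, 9160 with none and 64 controls, which were left out). A gene was represented by its brightest probe set and called if any set naming it alone was. Other settings were a threshold at the 99th or the 75th percentile, 3 of 4 arrays, limma 3.58.1 with a trend (log2 of signal over threshold, one-sided, Benjamini-Hochberg adjusted p under 0.05 over all sets, or over genes after multiplying a gene's lowest p by its number of sets), quantile normalisation, plain sets, the median set and leaving out each array. Lower bounds between sets, added after the data were seen, set values under the threshold to it. The calls were also run on simulated data, the outcome of which is not given here and adds no support. Named were the 10 brightest and 5 dimmest genes, those not above background, paralogues, the extremes of each role list, the widest spans between sets, the largest and smallest SDs, and the extremes of comparison lists. Other named genes, the further members of role lists and the shared sets of a gene, were chosen after their values were seen. The members and lists were chosen with earlier results of these data known. P-values measure the technical spread of 1 pool only.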

Additional observations from a re-analysis of the deposited data

Results flagged for a closer look

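A gap test asked, in 90 sets of 4 values, whether 1 array lay apart from the other 3. It picked out 4, where chance gives about 1 in 20 (4.5 of 90), 3 of them on array 4. Rpl39 in its own set had a log2 signal of 10.39 on array 4, and 12.85 to 13.28 on the others. The Rpl24 set shared with Gm9385, which is below background, had 6.19 on array 4, and 9.44 to 9.93 on the others. Mrpl27 had 14.18 on array 4, and 13.85 to 13.87 on the others. The median of the translation factor list was 13.99 on array 3, and 14.15 to 14.18 on the others.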

How the results depend on the processing

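The counts of probe sets, ribosomal protein genes, paralogues, mitochondrial ribosomal protein genes and translation factors above background stayed within 1.5-fold under the other thresholds, 3 of 4 arrays, limma, quantile normalisation and each array left out. With the median set of a gene, 44 of 48 ribosomal protein, 59 of 76 mitochondrial ribosomal protein and 42 of 46 translation factor genes were above background (39.3% of all genes). With plain sets only, the counts were 54 of 62 mitochondrial ribosomal protein and 33 of 36 translation factor genes (46.6% of all genes). In that setting, 15 of 25 ribosomal protein genes and 3 of 4 paralogues were above background, fewer genes being measured. The median log2 signal of ribosomal protein genes was then 11.46, and 16.13 with the median set of a gene. The widest difference between sets of a gene, 11.13 on the log2 scale, was 6.84 among plain sets, both against sets below background and so no measured folds; as a lower bound, chosen after seeing the data, it was 7.35 (Rpl41). The median SD of members above background that name 1 gene, 0.15, was 0.11 after quantile normalisation and 0.11 to 0.18 without single arrays. Of 50 named genes, 46 were unchanged at the 99th percentile, 47 at the 75th and 49 under limma and under 3 of 4 arrays. Unchanged refers to the call and to the sign of the mean log2 signal over the threshold. Rrp9 was not above background in the main setting. Relative to the threshold, Rpl12 turned to 0.93 and Cd3eap to 1.00 (log2) at the 75th percentile, and Rrp9, at 0.15, to -0.11 at the 99th and to between -0.082 and 0.42 without single arrays, the lowest without array 4. The cause was not tested. No paired analysis was possible because the arrays form 1 group.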
